A study of Mus musculus with 7 samples.

Results

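Chylomicron assembly was followed through 10 genes of the deposited table of 46671 genes, chosen by name: the apolipoprotein genes Apoa1, Apoa4, Apoc3, Apoc2 and Apob, the assembly and export genes Mttp and Sar1b, and the triglyceride synthesis genes Mogat2, Dgat1 and Dgat2. The libraries came from BALB/C mice aged 8 weeks and were of 2 genotypes, wild type (Ctrl, n = 3) and MST3 knockout in intestinal epithelial cells (cKO, n = 4); MST3 is a protein kinase encoded by Stk24. The labels name neither the Cre driver nor the age at deletion, and nothing states that each library came from a mouse of its own, so the p-values below measure the spread between these libraries. The treatment label, the same for both groups, states that the animals received no drug, while the design text mentions AOM&DSS, a carcinogen with a colitis-inducing agent.

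Absorbed fat reaches an enterocyte as fatty acids and monoacylglycerol, is rebuilt into triglyceride at the endoplasmic reticulum by acyltransferases, and is loaded by the microsomal transfer protein onto apolipoprotein B. The particle takes on smaller apolipoproteins such as A-I and A-IV, leaves the endoplasmic reticulum in COPII carriers and enters the lymph. This pathway belongs to the absorptive cells of the small intestine.

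Each library held between 14659708 and 19659622 reads in genes. Stk24 stood at 19.4, 19.4 and 21.0 FPKM (fragments per kilobase of transcript, scaled to library depth) in Ctrl and at 2.92, 3.04, 3.85 and 3.53 FPKM in cKO, so the targeted gene went with the labels. The tissue label reads colorectum, whereas 2 of 8 colon markers, Hoxd10 and Hoxa11, were listed at 0 in every library, Car1 had 2 reads in all, and Hoxb13 had at most 7 reads in any library. The 8 colon markers summed to 52.8 to 91.5 FPKM in Ctrl and 62.3 to 102.3 FPKM in cKO, the 8 markers of proximal small intestine to 3054 to 3488 and 1518 to 2439 FPKM. Most of the latter sum was 1 gene, Fabp1, at 2500 to 2815 FPKM in Ctrl and 819 to 1658 FPKM in cKO. The list did not fall as a whole. Of its 7 genes averaging 0.5 FPKM or more, 4 were higher and 3 lower in cKO (median 0.054 on the log2 scale). Onecut2, Slc40a1 and Cybrd1 were low, at no more than 4.61, 1.86 and 0.854 FPKM. Lct, a proximal marker which encodes lactase, stood at 279.7 to 523 FPKM over the 7 libraries, so the abundant genes of the tissue were those of small intestine. Apolipoprotein genes are also liver genes, and of 9 hepatocyte markers in the table Fga, Fgb and Fgg had no reads while Alb and Serpina1a had at most 3 reads in a library. The other 4 of these markers were detected in every library, Ttr with 28 to 66 reads, Serpina1b with 1 to 63, Apoa2 with 10 to 27 and Apoh with 6 to 17. The summed level of the list was 4.88 to 6.89 FPKM in Ctrl and 2.76 to 5.44 FPKM in cKO.

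The members were among the most abundant transcripts of this epithelium, with 1 exception, and together took 2.40% to 4.21% of the reads of a library. Apoa1, which encodes the main protein of high density lipoprotein, averaged 10868 ± 3135 FPKM (SD over 7 libraries) and held rank 2 among all genes. Apoa4, an apolipoprotein of newly made chylomicrons, averaged 7376 ± 2164 FPKM and held rank 5. Apoc3, an inhibitor of lipoprotein lipase, came next at 991 ± 282 FPKM, then Mttp at 529 ± 83.8 FPKM and Dgat1 at 341 ± 65.0 FPKM. Within single libraries this order held throughout: Apoa1 exceeded Apoa4 by 1.03 to 1.99 times, and Mttp exceeded Dgat1 by 1.19 to 1.90 times. Mogat2 at 259 ± 45.8, Dgat2 at 257 ± 97.3 and Apob at 253 ± 68.1 FPKM did not differ beyond their spread. Sar1b stood at 180.4 ± 36.0 FPKM. Apoc2, which encodes the activator of lipoprotein lipase, was the exception at 1.38 ± 0.972 FPKM and rested on 8 to 43 reads a library. This deposited value may leave out reads shared with an overlapping gene, described below.

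**Figure D1:**
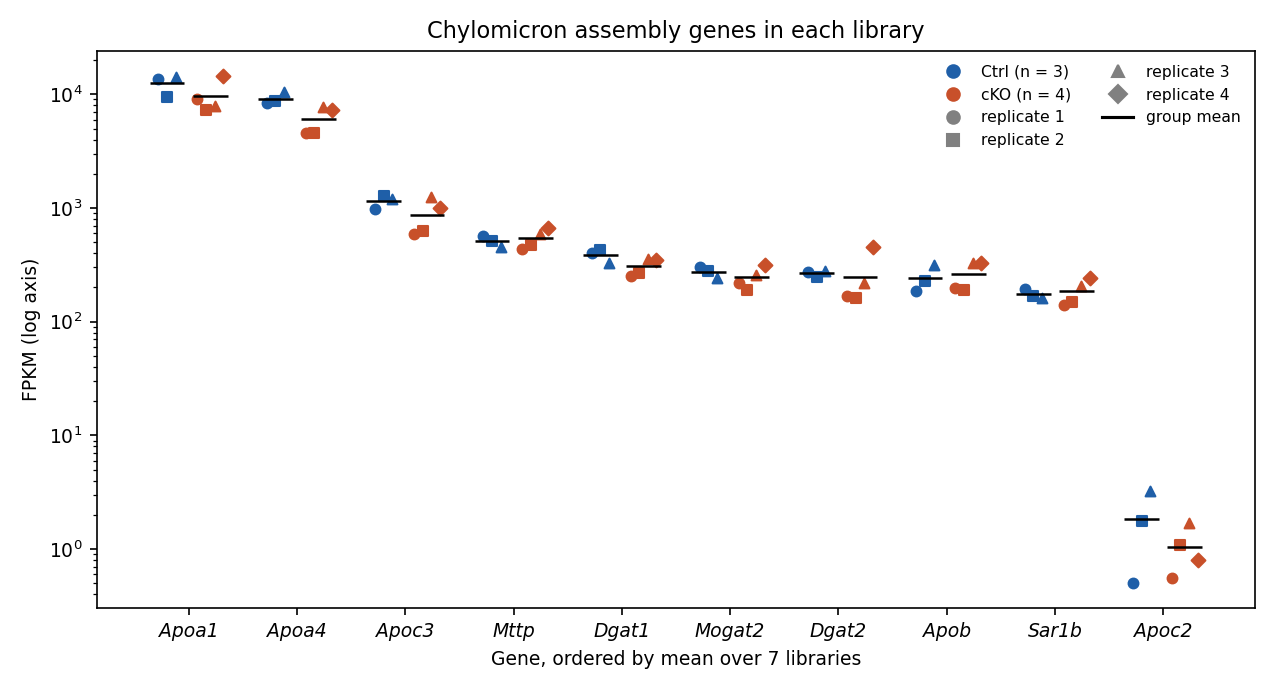
FPKM of the 10 genes (logarithmic axis) in the 3 Ctrl and 4 cKO libraries, with 1 point per library, the replicate number as marker shape and the group mean as a bar. Apoa1 and Apoa4 stand at 4553 FPKM or more in every library, and Apoc2 lies at 3.27 FPKM or less in all 7.

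Several members are neighbours in the genome. On chromosome 9 of GRCm39, Apoa1 (46139928 to 46141767, plus strand), Apoc3 (46144348 to 46146934, minus strand) and Apoa4 (46152142 to 46154756, plus strand) form a cluster, and Apoa5, which starts 40.0 kb from the start of Apoa1, had 15 reads over the 7 libraries. On chromosome 7, Dgat2 (98802870 to 98831920) and Mogat2 (98868291 to 98887818) are neighbours on the minus strand and stood at like levels. Apoc2 (7, 19405504 to 19411866, minus strand) lies in the other apolipoprotein cluster, where Apoe had at most 5.95 FPKM, Apoc4 at most 1.07 FPKM and Apoc1 at most 0.215 FPKM in a library. Apoc2 and Apoc4 lie within the span of the read-through gene Gm44805 on the same strand (19405504 to 19415385), which is listed at 0 in every library. Whether reads shared with Gm44805 were left out of the counts of Apoc2 and Apoc4 is not given and was not tested.

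RefSeq upstream sequence (GRCm38.p6) was at hand for 6 of the 10 members: Apoa1, Apoa4, Apoc2, Apob, Mttp and Sar1b. Those of Apoa1, Apoa4 and Apob are shown because the first pair shares a cluster and the ratio of Apoa4 to Apob, given below, did not overlap between groups. Positions count back from the RefSeq start, each stretch begins at base -250 and ends before the first annotated UTR base, and capitals mark matches on either strand to CAAAG, the core of elements bound by HNF4, to GATAAG, a site of zinc finger factors, and to TATAAA, the TATA box.
Apoa1 (chr9:46228380-46228579, plus strand): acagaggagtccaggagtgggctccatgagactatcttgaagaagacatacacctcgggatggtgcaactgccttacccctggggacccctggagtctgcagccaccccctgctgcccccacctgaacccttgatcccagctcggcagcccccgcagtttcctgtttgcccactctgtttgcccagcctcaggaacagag
Apoa4 (chr9:46240594-46240695, plus strand): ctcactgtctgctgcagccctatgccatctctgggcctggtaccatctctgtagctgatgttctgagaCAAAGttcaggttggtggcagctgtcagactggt
Apob (chr12:7977427-7977647, plus strand): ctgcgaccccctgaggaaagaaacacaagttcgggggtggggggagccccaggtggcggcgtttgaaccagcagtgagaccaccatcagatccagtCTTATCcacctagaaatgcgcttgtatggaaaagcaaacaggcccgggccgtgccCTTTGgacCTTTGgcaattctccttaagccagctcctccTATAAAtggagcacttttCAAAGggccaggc

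In the full window of 250 bases, Apob held CAAAG 3 times, GATAAG once and TATAAA once, Apoa4 held CAAAG once at -182, and Apoa1 held none of these. CAAAG occurs in 48.6% of the 32851 RefSeq windows of the same length, TATAAA in 12.4% and GATAAG in 6.55%. Also searched were CAAAGTCCA (0.384% of windows), AGGTCA (14.0%), GTTAAT (6.43%) and TGACGT (6.47%). Outside the sequences shown, AGGTCA and GTTAAT were each found once upstream of Apoc2, and TGACGT once upstream of Mttp. In the windows of Apoc2 and Mttp, base -250 already lies in annotated UTR or coding sequence, and the windows were searched in full. CAAAGTCCA was found in none of the 6, and CAAAG in 5 of 6.

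The comparison of genotypes asked whether loss of MST3 went with a different level of these genes. No member was called: 0 of 10 passed an adjusted p of 0.05 in limma over the 13057 genes tested, where 4 genes (0.0306%) passed in all, and 0 of 10 had an unadjusted p under 0.05, as had 4.73% of all genes in the lower and 4.24% in the higher direction. Voom on recovered reads also called 0 members and had 1 at an unadjusted p under 0.05, beside 1214 of 14426 genes in either direction. Array weights gave 3 such members, beside 1702 of 13057 genes. No variance trend and robust variance gave 1 each, beside 1106 and 1162 genes. Leaving out Ctrl replicate 1, cKO replicate 3 or cKO replicate 4 also gave 1 each, beside 811, 958 and 1228 genes. The fit without cKO replicate 4 had the smallest member p in limma, 0.00921. All 10 had passed the filter of a mean of at least 0.5 FPKM. Of the members 7 had a lower and 3 a higher fitted value in cKO. Their median log2 difference was -0.29, beside -0.0077 over all genes tested, 51.3% of which had a lower value. Groups of libraries did not overlap for 1 member, Apoa4, lower in cKO, as for 4.51% of all genes tested. In the higher direction the share was 5.62% of all genes and 0 members, and in either direction 10.1% of all genes. In bulk RNA fewer enterocytes and less RNA per enterocyte cannot be told apart.

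**Figure D2:**
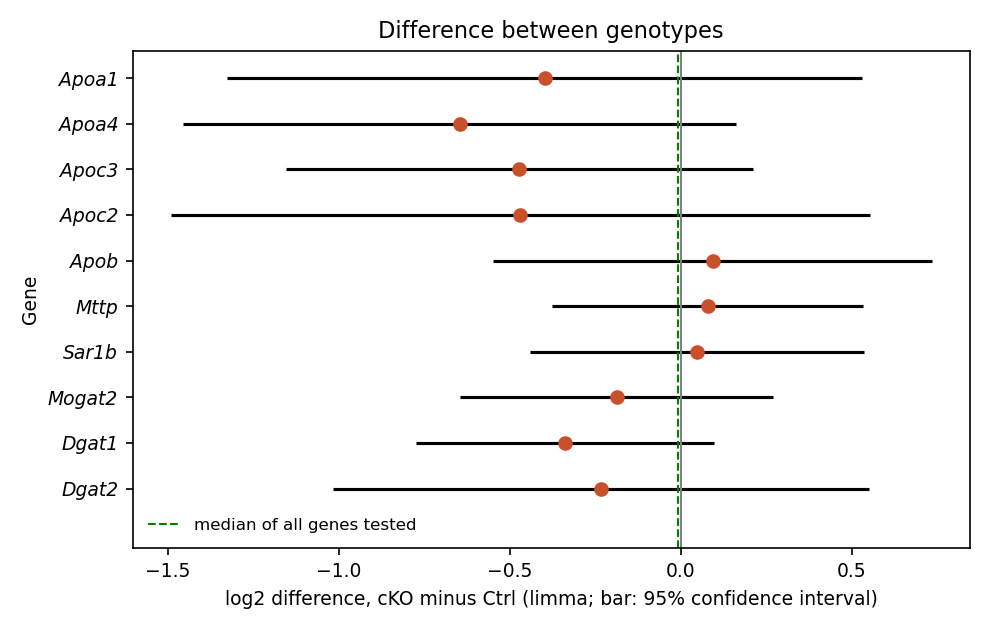
Log2 difference of each gene between cKO (n = 4) and Ctrl (n = 3) from limma, with bars for the 95% confidence interval, a grey line at 0 and a dashed line at the median of all genes tested (-0.0077). The interval of every gene includes 0; that of Apoa4 reaches from -1.45 to 0.16.

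Among the apolipoproteins, Apoa4 stood at 8456, 8677 and 10415 FPKM in Ctrl and at 4563, 4553, 7710 and 7261 FPKM in cKO. All 4 cKO libraries lay below all 3 Ctrl libraries, with cKO replicates 1 and 2 lowest. The means were 9183 ± 1073 FPKM for Ctrl and 6022 ± 1700 FPKM for cKO (SD, n = 3 and n = 4, as in all group means below). The log2 difference was -0.65 (SE 0.35, limma adjusted p = 0.623). By exact permutation, 2-sided, p was 0.0571, which is the lowest that groups of 3 and 4 can reach.

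Apoa1 stood at 13727, 9485 and 14174 FPKM in Ctrl and at 9047, 7254, 7926 and 14465 FPKM in cKO. The groups overlapped, since in FPKM cKO replicate 4 was the highest library of all while the other 3 cKO libraries lay below every Ctrl library. This order depends on the scaling. As a share of reads in genes, Apoa1 took 1.34%, 0.929% and 1.44% in Ctrl and 0.961%, 0.790%, 0.776% and 1.27% in cKO. By that share cKO replicate 4 lay below Ctrl replicates 1 and 3, and cKO replicate 1 above Ctrl replicate 2. The log2 difference was -0.40, with a 95% interval from -1.33 to 0.53 (limma adjusted p = 0.790). Apoc3, transcribed from between Apoa1 and Apoa4, stood at 985, 1268 and 1208 FPKM in Ctrl and at 595, 633, 1250.4 and 994 FPKM in cKO. Its low libraries were again cKO replicates 1 and 2, while replicates 3 and 4 lay within the Ctrl range (log2 difference -0.47, 95% interval -1.15 to 0.21, limma adjusted p = 0.668). By share of reads, Apoc3 in cKO replicate 4 lay below Ctrl, at 0.0661% beside 0.0726% or more. The 3 neighbours thus differed in replicate 3, where Apoa1 lay 0.63 below its Ctrl mean on the log2 scale and Apoc3 0.12 above its own.

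Apob, the structural protein that each chylomicron carries in a single copy, stood at 185, 226 and 315 FPKM in Ctrl and at 196, 190.1, 326 and 331 FPKM in cKO. Its libraries spread over the same range in both groups (log2 difference 0.093, 95% interval -0.55 to 0.73, limma adjusted p = 0.940). Apoc2 stood at 0.507, 1.76 and 3.27 FPKM in Ctrl and at 0.554, 1.09, 1.69 and 0.795 FPKM in cKO. It had 8 to 43 reads a library, the groups overlapped, and the log2 difference was -0.47 with a 95% interval from -1.49 to 0.55. Without Ctrl replicate 1 it was -0.98 and without Ctrl replicate 3 it was -0.029.

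Mttp encodes the large subunit of the microsomal triglyceride transfer protein, which lipidates apolipoprotein B. It stood at 563, 509.9 and 456 FPKM in Ctrl and at 437, 475, 594 and 669 FPKM in cKO. The groups overlapped, and cKO replicates 3 and 4 were the highest of the 7 libraries (log2 difference 0.079, 95% interval -0.38 to 0.53). Sar1b, the small GTPase that starts the COPII coat around chylomicron carriers, stood at 195, 168 and 162 FPKM in Ctrl and at 141, 149, 206 and 243 FPKM in cKO. It had the same order of cKO libraries as Mttp, and the ratio of Mttp to Sar1b stayed between 2.76 and 3.20 over all 7 libraries (log2 difference of Sar1b 0.048, 95% interval -0.44 to 0.54). The limma adjusted p was 0.929 for Mttp and 0.963 for Sar1b. The signs of Apob, Mttp and Sar1b are not settled: all 3 turned negative without cKO replicate 4, at -0.038, -0.028 and -0.096, and Apob also without Ctrl replicate 1, at -0.084. The sign of Apob also turned without cKO replicate 3, at -0.031, and that of Sar1b without Ctrl replicate 3, at -0.0061, or without cKO replicate 3, at -0.016. Sar1a, the close paralog of Sar1b, stood at 23.7 ± 1.52 in Ctrl against 23.6 ± 1.82 FPKM in cKO, and Sar1b exceeded it 5.78 to 10.2 times.

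Of the enzymes of triglyceride resynthesis, Mogat2 adds the acyl chain that turns monoacylglycerol into diacylglycerol. Mogat2 stood at 304, 279 and 244 FPKM in Ctrl and at 219, 188, 259 and 317 FPKM in cKO, with overlapping groups (log2 difference -0.19, 95% interval -0.64 to 0.27, limma adjusted p = 0.801). Its difference was -0.11 without Ctrl replicate 1, -0.068 without cKO replicate 2 and -0.32 without cKO replicate 4. Dgat1 and Dgat2 are unrelated in sequence and both make triglyceride from diacylglycerol. Dgat1 stood at 400.3, 429 and 329 FPKM in Ctrl and at 250.5, 268, 358 and 352 FPKM in cKO. All 4 cKO libraries lay below the Ctrl mean of 386 FPKM, but replicates 3 and 4 lay above the lowest Ctrl library (log2 difference -0.34, 95% interval -0.77 to 0.098, limma adjusted p = 0.630). By share of reads, Dgat1 in cKO replicate 4 lay below Ctrl, at 0.0856% beside 0.0920% or more.

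Dgat2 was the least even of the 3 enzymes. It stood at 274, 248 and 279.9 FPKM in Ctrl and at 168, 162, 217 and 451 FPKM in cKO. The first 3 cKO libraries lay below every Ctrl library and replicate 4 lay above all of them, so that the log2 difference was -0.23 with an interval from -1.02 to 0.55 (limma adjusted p = 0.868). It was -0.56 without cKO replicate 4, -0.088 without cKO replicate 1 and -0.071 without cKO replicate 2. Dgat1 exceeded Dgat2 in 6 of 7 libraries, by 1.17 to 1.73 times, and cKO replicate 4 was the exception at 0.781.

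**Figure D3:**
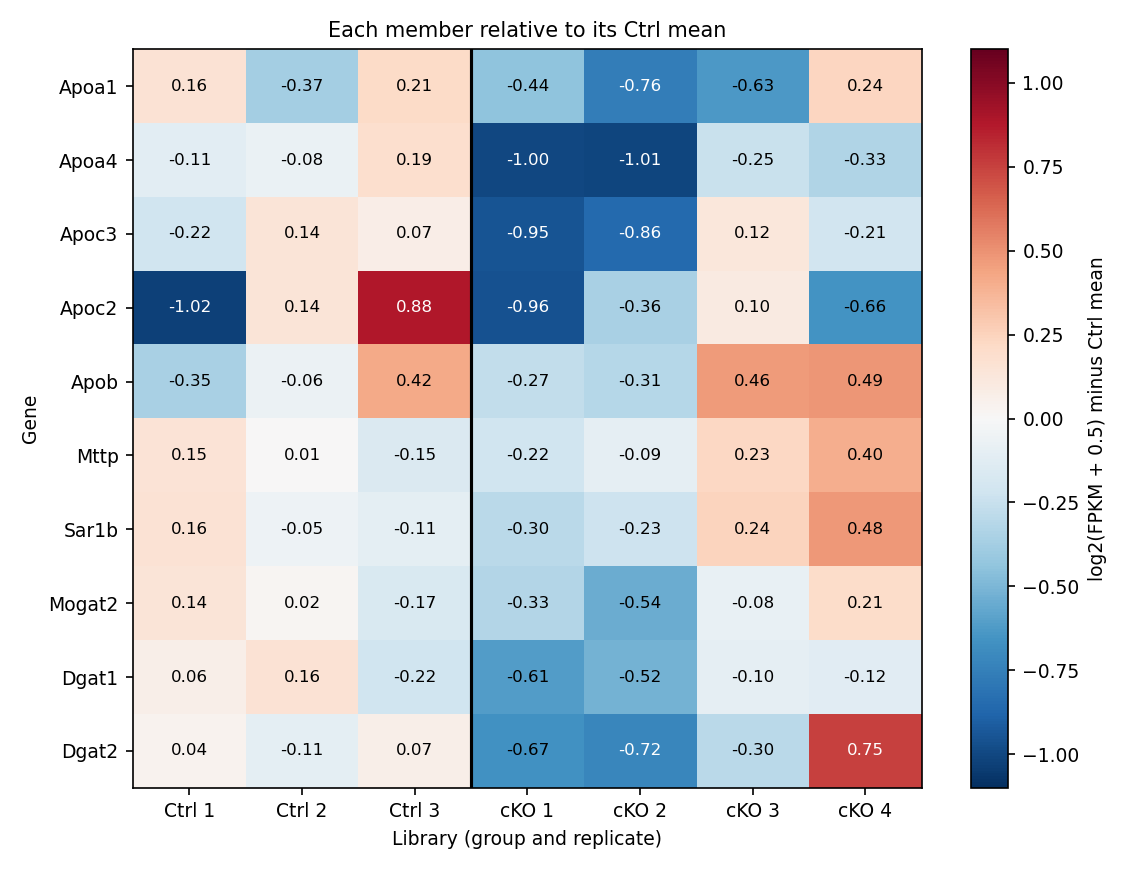
Log2(FPKM + 0.5) of each gene minus its Ctrl mean, for the 7 libraries, as colour and number. In cKO replicates 1 and 2 all 10 genes lie below 0, from -0.095 for Mttp in replicate 2 to -1.01 for Apoa4 in the same library. In replicates 3 and 4 the signs are mixed. These values depend on the scaling: by share of reads, Mttp in cKO replicate 2 was at 0.249%, within the Ctrl range of 0.222% to 0.264%.

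The members moved unevenly between libraries of the same genotype. Relative to the Ctrl mean, the mean log2 value of the 10 genes was -0.574 for cKO replicate 1, -0.539 for replicate 2, -0.020 for replicate 3 and 0.12 for replicate 4, beside -0.099 to 0.12 in Ctrl. FPKM summed over all genes was also lowest in cKO replicates 1 and 2, at 445587 and 421872, beside 455863 and 522836 in replicates 3 and 4. In Ctrl this sum was 485322 to 495024. By share of reads, the members took 2.52%, 2.40%, 3.09% and 3.37% in cKO and 3.26% to 4.21% in Ctrl. Lists of cell markers shifted in the same libraries. The 12 enterocyte markers averaged -0.28 in each of cKO replicates 1 and 2, then 0.18 in replicate 3 and 0.44 in replicate 4, and summed to 13608 to 14681 FPKM in Ctrl and 11668 to 21093 FPKM in cKO. For the 8 stem and cycling cell markers of the crypt the 4 values were 0.44, 0.40, -0.12 and -0.38, with sums of 478 to 570.2 FPKM in Ctrl and 369 to 735 FPKM in cKO. For the 6 Paneth cell markers they were 0.37, 0.45, -1.17 and -1.34, with sums of 9981 to 30258 FPKM in Ctrl and 5299.9 to 20797 FPKM in cKO. Of the 10 T cell and innate lymphoid cell markers, the 7 that passed the filter averaged -1.12, -0.75, 0.065 and 0.22 in cKO and -0.45 to 0.74 in Ctrl. All 10 summed to 269 to 654 FPKM in cKO and 416 to 1029.9 FPKM in Ctrl. None of these markers was at 0 in all libraries. Mitochondrial genes took 3.71%, 5.24%, 7.39% and 7.51% of reads in cKO replicates 1 to 4, beside 3.88% to 5.32% in Ctrl. In Ctrl, enterocyte markers reached from -0.24 to 0.16, crypt markers from -0.15 to 0.16 and Paneth markers from -0.66 to 0.60. The part of these marker and mitochondrial shifts in the members' values was not tested.

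**Figure D4:**
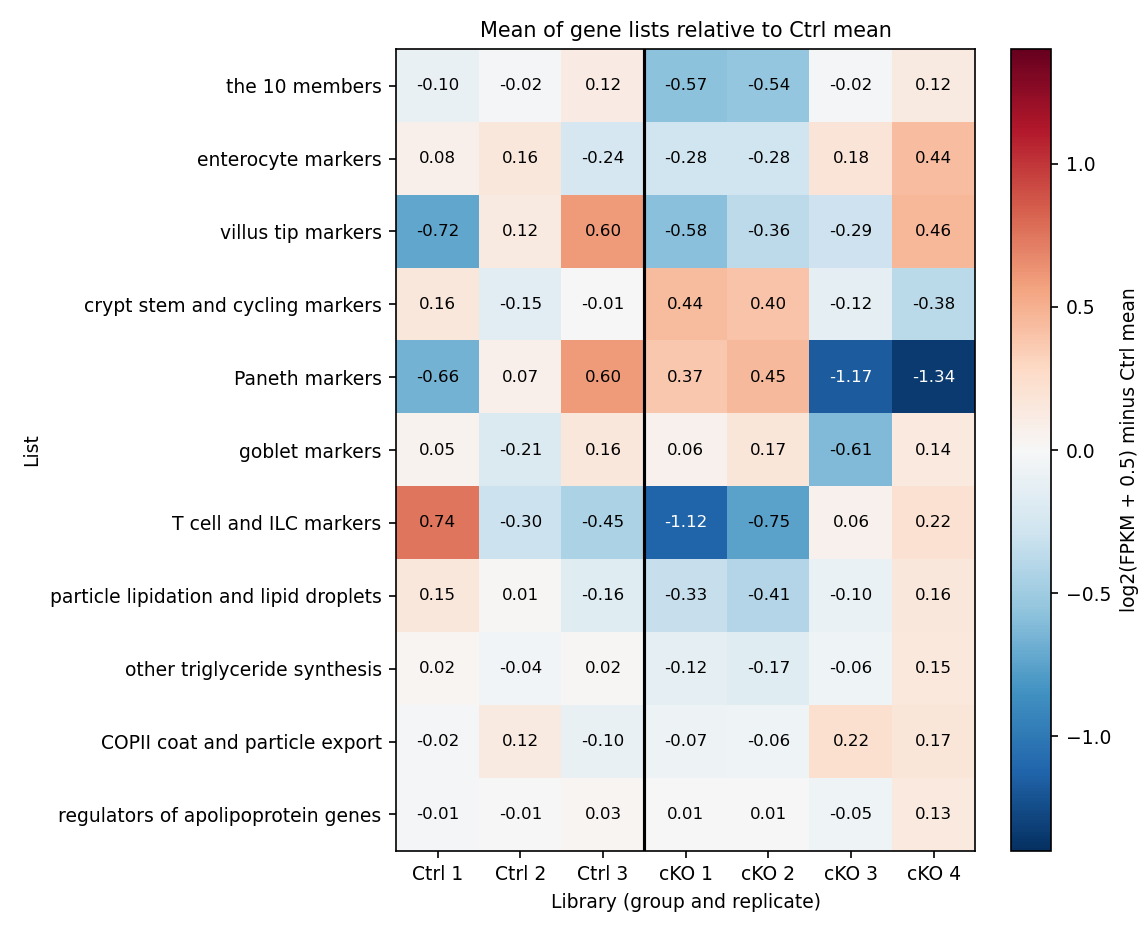
Mean log2(FPKM + 0.5) of the tested genes of each list minus the Ctrl mean in each of the 7 libraries. In cKO replicates 1 and 2 the members (-0.574 and -0.539) and enterocyte markers (-0.28 in both) are low while crypt markers (0.44 and 0.40) are high; replicates 3 and 4 differ from them in most lists.

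Depth, scaling and the factor used to normalise a library cancel in the ratio of 2 genes within that library. The ratio of Apoa4 to Apob was 45.8, 38.4 and 33.1 in Ctrl and 23.3, 24.0, 23.7 and 21.9 in cKO. The cKO libraries were within a narrow band and all below Ctrl, although both genes themselves varied between those libraries. The ratio of Mttp to Dgat1 was 1.41, 1.19 and 1.39 in Ctrl and 1.74, 1.77, 1.66 and 1.90 in cKO, and that of Mttp to Mogat2 was 1.85, 1.83 and 1.87 against 1.996, 2.52, 2.29 and 2.11. In both, the cKO libraries lay above all Ctrl libraries. The ratio of Sar1b to Dgat1 was 0.486, 0.392 and 0.491 in Ctrl and 0.564, 0.555, 0.575 and 0.690 in cKO, also without overlap. Apoa4 to Mttp, at 15.0 to 22.8 in Ctrl and 9.58 to 13.0 in cKO, and Apoa4 to Sar1b, at 43.5 to 64.5 and 29.9 to 37.5, were lower in all cKO libraries.

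These separations were about as frequent as elsewhere in the table. Of the 36 pairs among the 9 abundant members, 6 had ratios that did not overlap between groups (16.7%), beside 10.7% of all pairs of genes of at least 100 FPKM. Apoa4 took part in 3 of them, out of its 8 pairs (37.5%), and its ratio to other genes of at least 10 FPKM did not overlap between groups for 41.7% of 4928 genes. Of the 28 pairs without Apoa4, 3 did not overlap (10.7%). The pairs share genes and are not independent. The members also differ in length, from 746 bases for Apoc3 to 13957 bases for Apob. After each library's trend with gene length was removed, 4 of the 6 pairs still did not overlap; those of Apoa4 to Mttp and of Mttp to Mogat2 then overlapped.

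**Figure D5:**
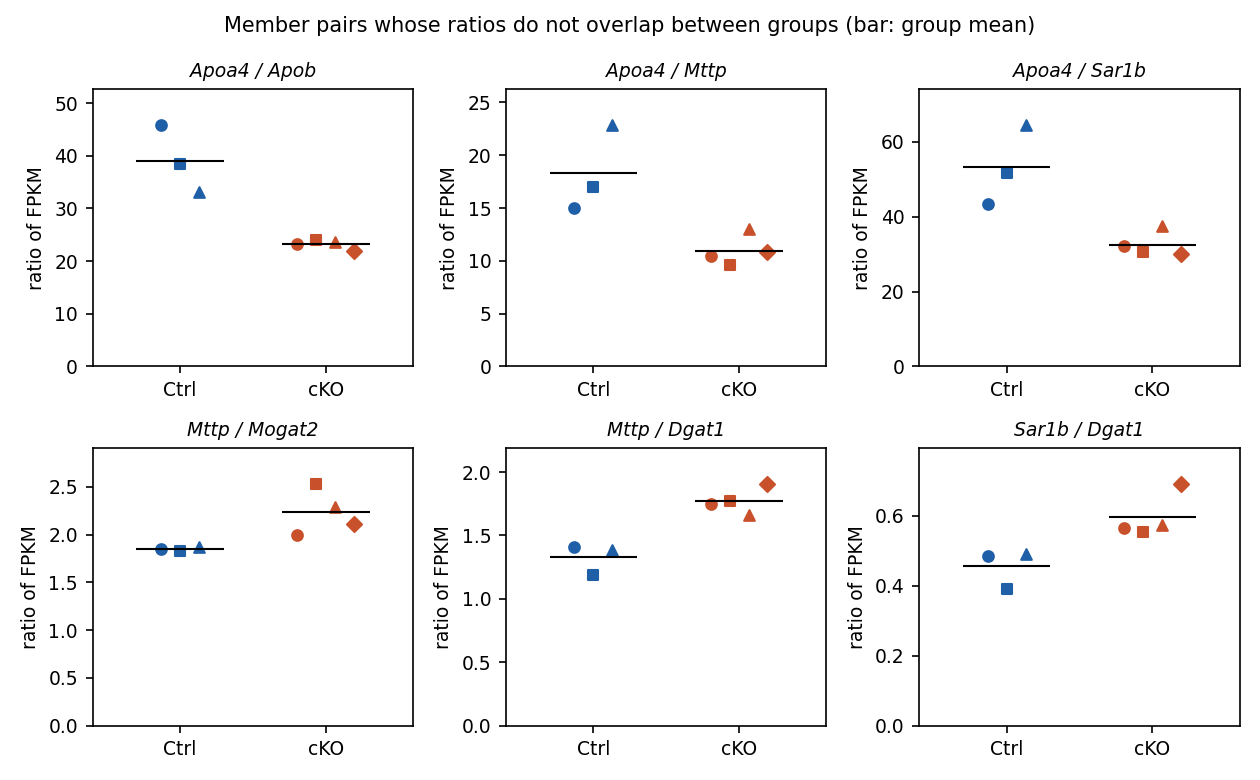
Ratio of FPKM within each library for the 6 member pairs that did not overlap between Ctrl (n = 3) and cKO (n = 4), with 1 point per library and a bar for the group mean; the axes start at 0. Apoa4 to Apob is at least 33.1 in Ctrl and at most 24.0 in cKO.

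Fabp2, the gene of the intestinal fatty acid binding protein, is another enterocyte gene. Set against Fabp2, Apoa4 separated the groups, as it did against 41.7% of 4928 genes of at least 10 FPKM. Its ratio to Fabp2 was 1.61, 1.72 and 1.602 in Ctrl and 1.05, 0.953, 1.58 and 0.772 in cKO, with cKO replicate 3 just below the lowest Ctrl library. The ratios of the other 8 abundant members to Fabp2 overlapped between groups. Fabp2 itself stood at 5605 ± 783 in Ctrl against 5854 ± 2378 FPKM in cKO. Fabp1, its liver-type relative, had all cKO libraries below Ctrl, at 2674 ± 160.3 against 1219 ± 383 FPKM (log2 difference -1.19, SE 0.29, limma adjusted p = 0.473).

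Other genes of the pathway were read from lists of their own, and none passed in limma. Of 10 further apolipoprotein genes only 4 reached the level for testing, and all 4 had lower values in cKO, with a median of -0.30. The most abundant was Apoe, at 3.94 ± 1.75 in Ctrl against 3.01 ± 1.28 FPKM in cKO. The smallest p belonged to Apoa2, a protein of high density lipoprotein, at 1.51 ± 0.180 and 0.864 ± 0.254 FPKM (log2 difference -0.58, SE 0.19, limma adjusted p = 0.516), from 10 to 27 reads a library. Its groups did not overlap.

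Among enzymes that supply fatty acyl-CoA, phosphatidic acid and diacylglycerol, 5 of 15 tested genes had higher and 10 lower values in cKO, with a median of -0.042. The mean of the 15 tested genes relative to Ctrl was -0.12, -0.17, -0.059 and 0.15 in the cKO libraries, beside -0.042 to 0.022 in Ctrl. Acsl5, the most abundant acyl-CoA synthetase, stood at 554 ± 78.4 in Ctrl against 540.2 ± 131 FPKM in cKO. Agpat4, a lysophosphatidic acid acyltransferase, had the smallest p, with a log2 difference of -0.29 (limma adjusted p = 0.637).

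Genes of particle lipidation and lipid droplets had lower values in 12 of 14 tested, with a median of -0.17. P4hb, which encodes protein disulfide isomerase, the partner subunit of the transfer protein, stood at 987 ± 191 in Ctrl against 869 ± 76.1 FPKM in cKO. Plin3, a coat protein of lipid droplets, had the smallest p of the list, at 166 ± 21.2 and 127 ± 27.4 FPKM (log2 difference -0.40, SE 0.18, limma adjusted p = 0.573). The mean of the 14 tested genes was again lowest in cKO replicates 1 and 2, at -0.33 and -0.41 relative to the Ctrl mean.

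Components of the COPII coat and of export carriers were split, with 12 of 22 tested genes higher, 10 lower and a median of 0.030. The cargo receptor gene Surf4 stood at 214 ± 34.2 in Ctrl against 208 ± 33.3 FPKM in cKO. Vamp7, a membrane fusion protein of pre-chylomicron vesicles, had the smallest p, at 16.8 ± 1.83 and 21.4 ± 3.08 FPKM (log2 difference 0.34, SE 0.14, limma adjusted p = 0.542).

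Regulators of apolipoprotein genes were evenly divided, with 11 of 23 tested genes higher, 12 lower and a median of -0.0021. The most abundant was Creb3l3, a transcription factor of the endoplasmic reticulum membrane known to act on Apoa4, at 258, 268 and 332 FPKM in Ctrl and 179, 177, 233 and 309 FPKM in cKO. Its groups overlapped, with cKO replicates 1 and 2 lowest as for Apoa4 (log2 difference -0.38, SE 0.22, limma adjusted p = 0.646). A1cf, a cofactor of the editing of Apob mRNA, had the smallest p, at 16.6 ± 3.40 in Ctrl against 21.03 ± 1.80 FPKM in cKO, for which limma gave an adjusted p of 0.554. Whether Apob transcripts were edited cannot be read from a table of gene levels.

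Receptors and lipases of circulating lipoproteins had 7 of 10 genes at the level for testing, 6 with lower values, with a median of -0.063. Lrp1, a receptor of chylomicron remnants, had the smallest p, at 20.9 ± 3.55 in Ctrl against 16.8 ± 1.65 FPKM in cKO, for which limma gave an adjusted p of 0.585. Angptl4, an inhibitor of lipoprotein lipase, was the most abundant of the list. It stood at 6.66, 43.6 and 34.2 FPKM in Ctrl and at 6.71, 6.36, 36.0 and 32.1 FPKM in cKO. Ctrl replicate 1 and cKO replicates 1 and 2 were low and the other 4 libraries high, so the groups overlapped (log2 difference -0.51, SE 0.83, limma adjusted p = 0.884).

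Genes other than the members whose pattern over the 7 libraries was most like theirs were sought among 4921 genes of at least 10 FPKM. The measure was Pearson's r with the mean log2 value of the 9 abundant members. Only the members were left out, so the 4921 include the other pathway genes of that level. The highest were Max (r = 0.991), a partner of Myc, Sema4b (0.980), Slc25a45 (0.979), Spsb3 (0.974), Cyhr1 (0.970) and Cox11 (0.970). Over the 7 libraries, 113 of the 4921 genes had an r of at least 0.9, and the named genes are the highest of many compared. The depth and cell makeup of a library enter the values of all its genes. Max stood at 95.7, 96.5 and 98.8 FPKM in Ctrl and at 71.0, 66.6, 97.2 and 119 FPKM in cKO, with the same low libraries as the members.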

How the data were processed

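The authors deposited 1 table of FPKM (log2 values were made here) for 7 libraries. Per the submitters' processing notes, reads were aligned with HISAT2; which program counted them, with what strand setting and gene set, is not given in the sources used here. Chromosome accessions in the table are those of GRCm39. FPKM multiplied by the deposited gene length came out as whole multiples of 1 step per library (100% of values within 0.01), which gave the reads used for depth and voom. No pair of libraries agreed within sampling noise (chi-square per degree of freedom at least 19.5). The most alike pairs were cKO replicates 1 and 2 (19.5) and cKO replicates 3 and 4 (26.8). Between these 2 pairs the cKO libraries stood at 50.9 to 73.5, beside 35.3 to 50.4 among Ctrl libraries.

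The test used genes averaging 0.5 FPKM or more and limma 3.58.1 (R 4.3.3) on log2(FPKM + 0.5), a scale that understates changes of low genes, with a variance trend, 2-sided, Benjamini-Hochberg adjustment over all 13057 genes and a threshold of 0.05. Exact permutation tests ran over 35 splits. The fit was tested on simulated data. From each pathway list the most abundant gene and that of smallest p were named. Members and lists were chosen with earlier results of these data known, so their counts are descriptions. Of 222 listed symbols 221 were in the table. Alternatives were other pseudocounts, filters, scalings, variance models, voom, a replicate block and leaving out each library; removal of the length trend was added after seeing the data.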

Additional observations from a re-analysis of the deposited data

Results flagged for a closer look

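In the cKO group of 4, the gap of the most extreme library to its nearest neighbour was compared with the range of the group for 102 sets of values, and 5 passed Dixon's 95% critical value; chance alone flags about 1 in 20. The ratio of Apoc3 to Sar1b was 6.07 in cKO replicate 3, beside 4.26 in the next library. The ratio of Sar1b to Dgat1 was 0.690 in cKO replicate 4, beside 0.575 in the next. Goblet cell markers summed to 4328 FPKM in cKO replicate 3, beside 6871 FPKM in the next library, and their mean log2 value there was -0.61 relative to the Ctrl mean. The mean of the 4 hepatocyte markers that passed the filter was -0.78 in cKO replicate 4, beside -0.23 in the next library.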

How the results depend on the processing

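No member was called under any of the 21 alternatives, and the members' median log2 difference stayed between -0.43 and -0.15, or between -0.41 and -0.17 with 1 library left out. The 7 members with lower values kept their sign throughout. The 3 others turned negative with array weights (Apob -0.032, Mttp -0.045, Sar1b -0.0998), with the replicate block, where cKO replicate 4 has no Ctrl partner (Apob -0.038, Mttp -0.028, Sar1b -0.096) and, for Apob, after removal of the length trend (-0.026). With libraries left out they lay between -0.084 and 0.30 for Apob, -0.028 and 0.18 for Mttp, and -0.096 and 0.16 for Sar1b. The log2 differences of the others then lay between -0.61 and -0.28 for Apoa1, -0.78 and -0.53 for Apoa4, -0.67 and -0.31 for Apoc3, -0.98 and -0.029 for Apoc2, -0.32 and -0.068 for Mogat2, -0.45 and -0.25 for Dgat1, and -0.56 and -0.071 for Dgat2. The count of genes called, 4, was 1 with a pseudocount of 0.1, no filter, a mean of at least 1 FPKM or the length trend removed, 2 with the sum without abundant genes or voom, 0 with the replicate block, and 1 to 7 with 1 library left out (7 without cKO replicate 1, 2 without Ctrl replicate 1, 1 without any of the others). Replicate numbers are those of the sample titles. Same-numbered libraries correlated at 0.12, -0.087 and -0.13 in their deviations from the group mean. Ctrl replicate 1 correlated best with cKO replicate 1, and Ctrl replicates 2 and 3 with cKO libraries of other numbers. With so few libraries, these correlations cannot settle whether the title numbers pair them, and the column headers give no such pairs. With the block 1 member had an unadjusted p under 0.05 in limma, as had 1055 of 13057 genes.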

Other observations

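The 3 libraries in which Angptl4 was low were also the 3 with the lowest Apob, a coincidence noticed after the values were seen. Apob stood at 185 FPKM in Ctrl replicate 1 and at 196 and 190.1 FPKM in cKO replicates 1 and 2, beside 226 FPKM or more in the other 4 libraries.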
